A study of Mus musculus with 3 samples.

Results

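Enzymes that write, erase and read methylation on DNA and on histone H3 were followed in the nephron progenitors of the embryonic mouse kidney. The members were a list of 43 genes, taken on the array through every probe set annotated with exactly 1 of these gene symbols. A probe set is a group of short probes that together report 1 transcript. Of the 43 genes, 41 had such a probe set and were measured by 112 probe sets, out of 34945 single-gene probe sets for 18193 genes on the array. Suv39h1, a methyltransferase of histone H3 lysine 9, and Ash1l, a methyltransferase of histone H3 lysine 36, had none and were not analysed here.

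All samples belonged to 1 group. Cap mesenchyme, the cell layer around the ureteric tips from which nephrons form, was sorted by fluorescence from E15.5 kidneys (Theiler stage 23) of CD-1 embryos of unknown sex that carried Tg(Six2-EGFP/cre)1Amc. This transgene joins EGFP and cre under the control of Six2, so every sample carried it and the sort depended on it. There were 3 arrays, and each held the RNA of pooled kidneys, about 5 to 10 of them; the pools are called 1 to 3. The labels do not say whether the pools came from separate litters, so the spread between them may be technical, and the p-values measure that spread alone. No other cell population or treatment was available for comparison, so each probe set was tested against the background level of its array. That level was the 95th percentile of 150 probe sets for olfactory, vomeronasal and taste receptors, keratin-associated proteins and defensins, and its signals were 197, 186 and 201 on the arrays of pools 1, 2 and 3. A probe set was above background when limma's one-sided test of log2(signal + 16) over the 3 pools gave an adjusted p under 0.05, with Benjamini-Hochberg adjustment over all 45037 probe sets. A gene was above background when any of its probe sets was. It was represented by the probe set of highest mean log2 signal. Probe sets bind with different strength, so the signals show whether a transcript was detected and how steady it was between pools, but do not rank 1 gene over another.

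DNA methylation is placed on cytosines that precede guanine (CpG). Dnmt3a and Dnmt3b set new marks, Dnmt1 copies them to the new strand after replication with the help of Uhrf1, and the Tet enzymes oxidise them towards removal. On histone H3, methylation of lysine 4 (H3K4) marks promoters and enhancers in use, H3K36 and H3K79 methylation lies over transcribed genes, and H3K9 methylation marks heterochromatin, where the chromodomain proteins Cbx1, Cbx3 and Cbx5 bind it. In the kidney, Dnmt1 is known to be required in nephron progenitors for normal nephron number.

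Markers of the labelled cell type were detected, but a test against background does not show how pure the sort was. All 8 cap mesenchyme markers were above background, with means from 878 for Cited1 to 33774 for Eya1. Six2 read 8734, 5727 and 9255 in pools 1, 2 and 3. All 7 measured proliferation markers were above background too. Markers of other cells that the sort could hold passed in 5 of 7 cases for stroma, 3 of 8 for ureteric bud and 1 of 6 for endothelium. Macrophage, erythroid and germ line markers passed in 0 of 6, 0 of 6 and 0 of 5 cases in limma, with 0, 0 and 0 at an unadjusted p under 0.05. Summed stromal signals were 28193, 21525 and 22517 in pools 1, 2 and 3. They were led by Foxd1 and Aldh1a2, with means of 7565 and 11845, whereas Tbx18 and Ntn1 were not above background. Summed ureteric signals were between 1181 and 2110. The ureteric markers Wnt7b, Wnt11 and Krt8 were above background, and Ret, Wnt9b, Calb1, Hoxb7 and Gata3 were not. Summed endothelial, macrophage and erythroid signals were between 424 and 863, and no marker of these lists had a mean of exactly 0. In bulk RNA a lower signal cannot be split into fewer cells of a type and less RNA per cell, and the share of these cells in the results below was not tested.

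Transcripts of 38 of the 41 measured genes were above background, against 54.4% of all 18193 genes. The 3 that were not were Dnmt3l, Tet3 and Cbx3, each represented by a single probe set. Genes with more probe sets pass more easily, so the count was also read by number of probe sets: 30 of 30 members with at least 2 probe sets passed, against 72% of all such genes, and 8 of 11 members with 1 probe set passed, against 37.1%. Over the array the share rose to 64.3% for genes with 2 probe sets, 76.9% with 3 and 84.5% with 4 or more, where 12 of 12 members passed. For all 38, every pool lay over its background level on the representative probe set. Among single probe sets, 85 of 112 were above background, against 47.2% of all single-gene probe sets, and of the 27 others 1 had an unadjusted p under 0.05. In 15 of the 30 members with several probe sets some passed and some did not, against 46.3% of all such genes. The median representative probe set of the 41 members lay 4.35 log2 units over the background level, and that of all genes 1.20 units.

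**Figure D1:**
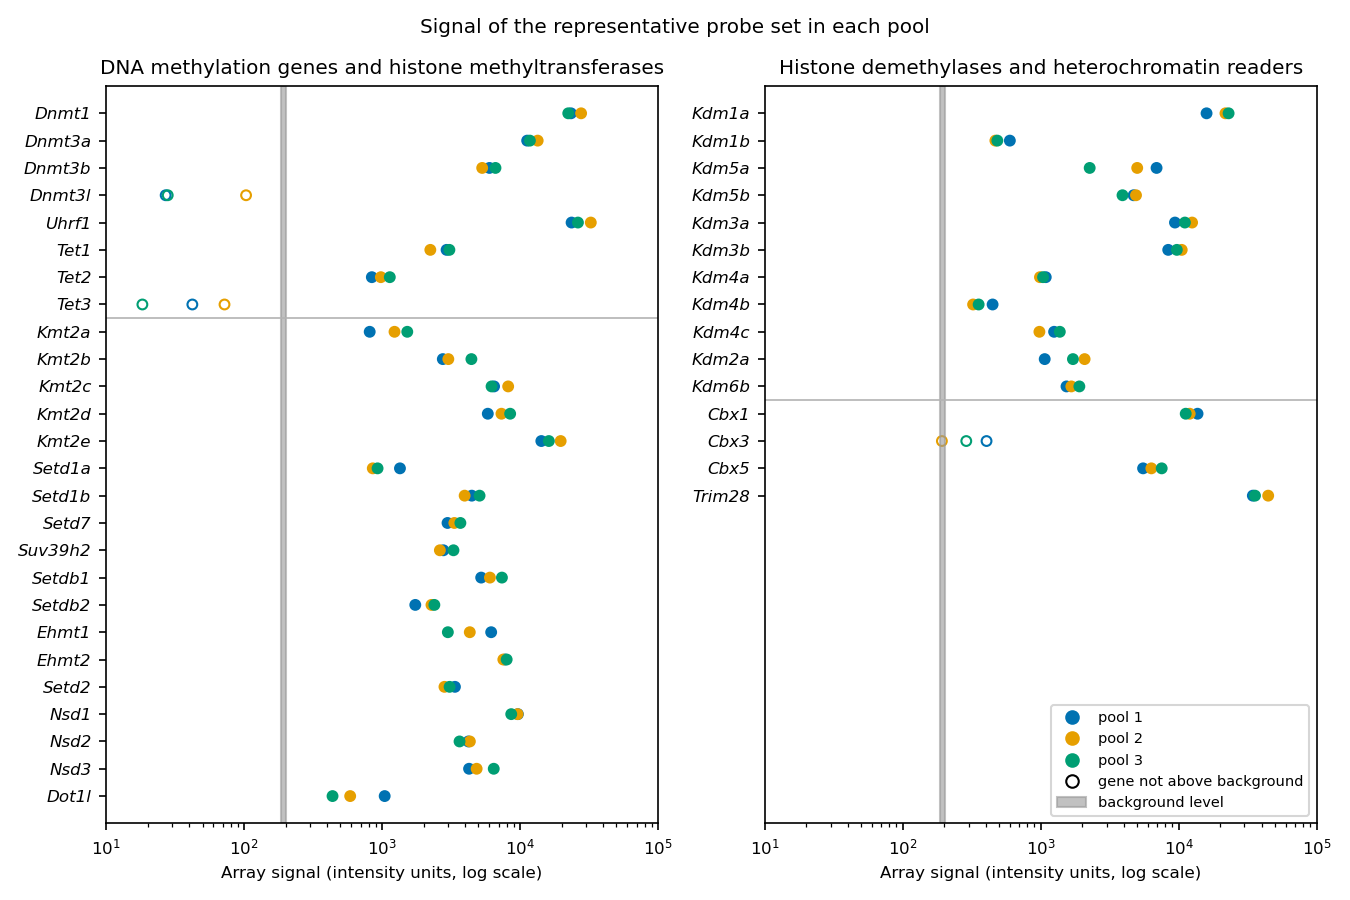
Signal of the representative probe set of each of 41 genes in pools 1, 2 and 3 (x axis, log scale, intensity units; 1 point per pool; lines part the DNA enzymes from histone methyltransferases and the demethylases from readers). Open points are genes not above background, and the grey band is the background level, 186 to 201; Dnmt3l and Tet3 lie under it in every pool, and Cbx3 lies at it in pool 2 and over it in pools 1 and 3.

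The maintenance pair of DNA methylation was detected on every probe set it had. Dnmt1, the maintenance methyltransferase, had signals of 23427, 27736 and 22385 in pools 1, 2 and 3 (24516 ± 2837, SD, n = 3), 6.86 ± 0.15 (SE) log2 units over background (adjusted p = 1.6e-08, limma). Its other probe sets had means of 19900.2 ± 874 and 10097.3 ± 1379 (n = 3 each), so all 3 passed. Uhrf1, which recognises hemimethylated DNA and brings in Dnmt1, read 23662, 32609 and 26308 in pools 1, 2 and 3 on its representative probe set, 7.02 ± 0.16 log2 units over background (adjusted p = 1.6e-08, limma). A further Uhrf1 probe set passed close to the background level, at 422, 290 and 435 (adjusted p = 0.0071, limma).

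Both de novo methyltransferases were detected, and their cofactor was not. Dnmt3a read 11274, 13437 and 11797 in the 3 pools (12170 ± 1128, n = 3), and all 5 of its probe sets passed. Dnmt3b read 6007, 5323 and 6644 (5991 ± 661, n = 3; adjusted p = 1.7e-08, limma), and its further probe set passed at 494 ± 167. On the representative probe sets of both genes, the pools lay within 1.25-fold of each other. Dnmt3l, a catalytically inactive relative that stimulates Dnmt3a and Dnmt3b in germ cells and early embryos, read 27.03, 103 and 28.0, under the background level in every pool (adjusted p = 1, limma). Its mean lay 1.79 units on the log2 scale under that level.

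Tet1 and Tet2 were detected and Tet3 was not. Tet1 read 2938, 2240 and 3079 (adjusted p = 8.3e-08, limma), with 2 of its 4 probe sets above background. Tet2 read 844, 981 and 1139 on its representative probe set (adjusted p = 4.6e-06, limma). The second Tet2 probe set also passed but read 2608, 639 and 522, so that pool 1 was high on one and lowest on the other. Tet3 had 1 probe set, with signals of 42.2, 72.2 and 18.3, under background in every pool (adjusted p = 1, limma). A single probe set with a low signal does not show that the transcript is absent.

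The promoters of 4 of these genes are shown because each pair sets a detected gene beside an undetected relative. They are the 250 bases before the transcription start in RefSeq (mouse build GRCm38.p6), read 5′ to 3′ along the gene, with CpG in capitals. The windows are chr2:153649199-153649448 on the plus strand for Dnmt3b, chr10:78042037-78042286 on the plus strand for Dnmt3l, chr10:62887325-62887574 on the minus strand for Tet1 and chr6:83441679-83441928 on the minus strand for Tet3.
Dnmt3b: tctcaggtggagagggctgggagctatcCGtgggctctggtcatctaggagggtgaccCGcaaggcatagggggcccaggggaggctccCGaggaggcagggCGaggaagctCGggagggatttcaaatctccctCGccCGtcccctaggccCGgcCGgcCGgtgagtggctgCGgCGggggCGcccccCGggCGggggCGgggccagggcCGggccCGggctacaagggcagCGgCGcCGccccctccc
Dnmt3l: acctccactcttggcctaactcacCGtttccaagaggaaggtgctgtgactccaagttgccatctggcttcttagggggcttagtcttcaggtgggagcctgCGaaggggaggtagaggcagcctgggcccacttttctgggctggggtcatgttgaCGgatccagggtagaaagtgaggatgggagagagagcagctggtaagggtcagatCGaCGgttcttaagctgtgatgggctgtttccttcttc
Tet1: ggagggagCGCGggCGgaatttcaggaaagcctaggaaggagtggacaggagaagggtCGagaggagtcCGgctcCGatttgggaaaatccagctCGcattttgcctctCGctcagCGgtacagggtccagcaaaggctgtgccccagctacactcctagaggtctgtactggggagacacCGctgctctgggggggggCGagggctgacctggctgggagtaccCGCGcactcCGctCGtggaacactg
Tet3: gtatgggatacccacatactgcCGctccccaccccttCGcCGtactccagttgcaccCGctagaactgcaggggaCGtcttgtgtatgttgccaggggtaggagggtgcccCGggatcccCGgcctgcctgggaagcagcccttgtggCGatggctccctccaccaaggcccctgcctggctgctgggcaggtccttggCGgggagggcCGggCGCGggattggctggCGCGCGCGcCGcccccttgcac
Within these stretches there are 21 CpG for Dnmt3b and 5 for Dnmt3l, but 15 for Tet1 and 17 for Tet3.

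CpG counts in windows from 250 bases before to 50 after a start extended this to the 30 members with an entry in RefSeq's promoter table. For a gene with several starts the window with the most CpG was taken. The 27 members above background held a median of 30 CpG, from 13 for Kdm4a to 57 for Tet2. Over all 14368 measured genes with an entry, the median was 24 for the 8078 above background and 7 for the 6290 not above it. Dnmt3l held 6 CpG at its richest start, fewer than any of the 27 at theirs. Tet3 held 22 and Cbx3 34, inside the range of the 27. The other Dnmt3l starts held 4 and 3. Members above background had poor further starts too, with 0 CpG for Kdm3a and Kdm4c and 8 for Cbx5. Dnmt1 has 3 starts, with 2, 12 and 33 CpG, and Uhrf1 has 2, with 12 and 33; the probe sets do not tell which start was used. At least 10 CpG were held by 27 of the 27 members above background, by 91.7% of all genes above background and by 42.0% of those not above it. These counts describe the letters in the window and say nothing of their methylation. Kdm2a, Kdm3b, Kdm4b, Kdm5a, Kdm6b, Kmt2b, Kmt2e, Nsd1, Nsd2, Nsd3 and Setd1b were not matched.

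**Figure D2:**
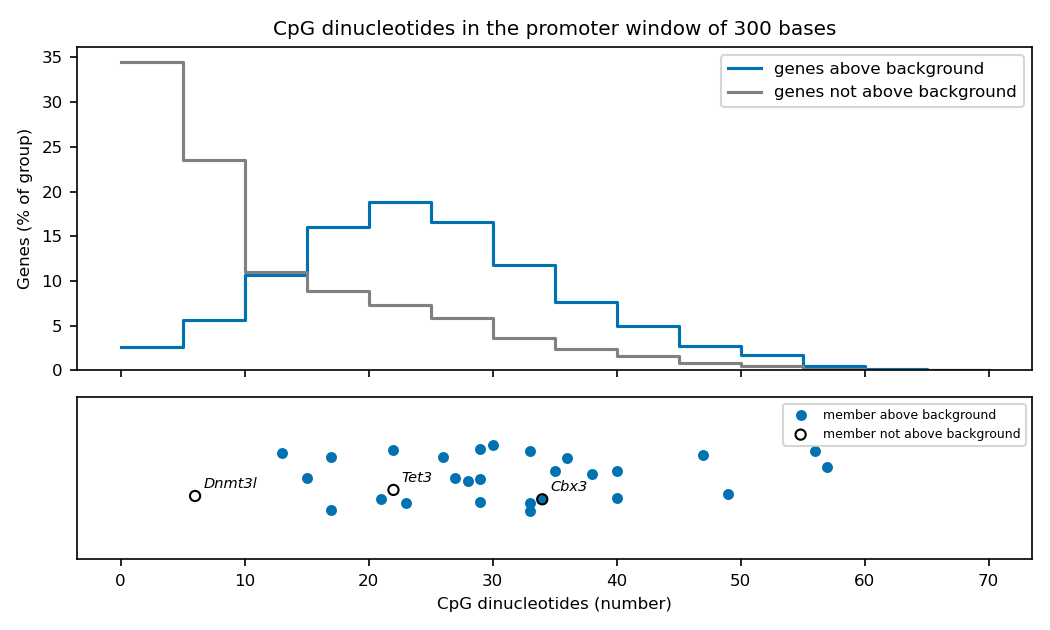
Number of CpG dinucleotides in the promoter window, 250 bases before to 50 after the start (x axis). The upper panel gives the percentage of all genes above background (8078) and not above it (6290) in steps of 5 CpG, and the lower panel shows the 30 matched members, spread vertically only for legibility; Dnmt3l, at 6, lies left of every member above background.

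All 8 measured H3K4 methyltransferase genes were above background, against 54.4% of all genes on the array. Kmt2d, which acts mainly at enhancers, read 5844, 7339 and 8488 in pools 1, 2 and 3, and its relative Kmt2c 6490, 8211 and 6223, with 3 of 4 Kmt2c probe sets above background. Kmt2a and Kmt2b, the trithorax-type enzymes that act at developmental promoters, read 814, 1232 and 1524, and 2759, 3025 and 4446. For Kmt2a, Kmt2b and Kmt2d, pool 1 was lowest and pool 3 highest on these probe sets, but a second Kmt2a probe set ran the other way, at 996, 642 and 628. Kmt2e, a family member without clear methyltransferase activity, read 14281, 19718 and 16193 (adjusted p = 1.6e-08, limma). Setd1a and Setd1b, the catalytic subunits of the complexes that place most H3K4 trimethylation, read 1349, 857 and 929, and 4474, 3971 and 5094. Setd7, a monomethyltransferase that also modifies proteins other than histones, read 2985, 3344 and 3699. Kmt2d, Setd1a and Setd7 passed on 1 of 2 probe sets each, and Kmt2e on 4 of 6. On the representative probe sets of the 8 genes, the excess over background ranged from 2.31 to 6.30 log2 units and pools differed by at most 1.86-fold, while another Kmt2e probe set above background differed by 6.92-fold.

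H3K9 methyltransferase genes passed in 5 of 5 measured cases, against 54.4% of all genes on the array. Ehmt1 and Ehmt2 encode the partners of the complex that dimethylates H3K9 in euchromatin. Ehmt2 was the steadiest representative probe set of all members above background, at 7796, 7574 and 8009 (coefficient of variation 2.79%, n = 3). The second Ehmt2 probe set, at 220, 8.76 and 11.63, was not above background. Ehmt1 was among the least steady, at 6184, 4327 and 3001, a 2.06-fold difference between pools 1 and 3. Setdb1, the enzyme that Trim28 brings to retroviral elements, read 5234, 6057 and 7399 (adjusted p = 2.5e-08, limma), and its relative Setdb2 read 1743, 2283 and 2396. Suv39h2, which trimethylates H3K9 in pericentric heterochromatin, passed on all 3 of its probe sets, with 2785, 2626 and 3295 on the representative one. Setdb1 passed on 2 of 3.

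The H3K36 and H3K79 methyltransferases were detected as well. Setd2, which trimethylates H3K36 and travels with RNA polymerase, read 3377, 2836 and 3090 in pools 1, 2 and 3. Nsd1, Nsd2 and Nsd3, which dimethylate H3K36, read 9657, 9605 and 8642, then 4228, 4333 and 3647, then 4275, 4851 and 6454. On these representative probe sets pools differed by at most 1.51-fold, but others above background differed more, by up to 2.99-fold for Nsd2 and 2.31-fold for Nsd3. All 6 Nsd3 probe sets passed, beside 4 of 5 for Nsd2 and 2 of 4 for Nsd1. Dot1l, the only known H3K79 methyltransferase, was nearer to background, at 1046, 588 and 438 (1.66 ± 0.26 log2 units over it, adjusted p = 0.00056, limma), with pool 1 highest. With the level set at the 99th percentile, Dot1l was no longer above background.

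Histone demethylase genes passed in all 11 cases, against 54.4% of all genes on the array. Among all genes with 4 or more probe sets, such as Kdm2a, Kdm5a and Kdm5b, 84.5% passed. Kdm1a, the flavin-dependent H3K4 demethylase LSD1, read 15928, 21836 and 23011 (adjusted p = 1.6e-08, limma). Its second probe set read 5882, 7836 and 10246. Pool 1 was lowest and pool 3 highest on both. Its relative Kdm1b, best known from oocytes, stood at 598, 469 and 485 (adjusted p = 0.00034, limma) and was no longer above background at the 99th percentile. Kdm5b, a demethylase of trimethylated H3K4, read 4717, 4906 and 3917, and passed on 3 of 4 probe sets. Kdm5a, of the same family, read 6915, 5007 and 2265 on its representative probe set, the widest difference of any representative probe set above background among the members (3.04-fold). A second Kdm5a probe set read 5109, 3977 and 3726, where the same pools differed by 1.37-fold. Kdm5a passed on 3 of 6 probe sets.

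Among H3K9 demethylases, Kdm3a and Kdm3b read 9401, 12511 and 11098, and 8401, 10523 and 9698, lowest in pool 1. A second Kdm3b probe set, at 646, 1020.4 and 1244, was also lowest there and varied more between pools. Kdm4a, which also acts on H3K36, varied little, at 1088, 988 and 1040.0 (coefficient of variation 4.82%, n = 3), and Kdm4c read 1251, 979 and 1376. A second Kdm4a probe set was not above background. Kdm4b was the member above background with the least margin, at 448, 324 and 355 (0.88 ± 0.22 log2 units, adjusted p = 0.0072, limma), and fell under the level set by the 99th percentile. Kdm2a, the H3K36 demethylase that binds unmethylated CpG through a zinc finger, read 1069, 2081 and 1713 on its representative probe set. Of its 7 probe sets 3 passed, so Kdm2a lost its call when at least as many probe sets had to pass as fail. Kdm6b, a demethylase of H3K27 that opposes polycomb repression, read 1539, 1667 and 1906 and passed on 3 of 3 probe sets.

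Of the readers, Cbx1, Cbx5 and the scaffold Trim28 were above background. Trim28, which links zinc finger repressors to Setdb1 and HP1 proteins, read 34482, 44557 and 35747 in pools 1, 2 and 3 (38262 ± 5488, n = 3; adjusted p = 1.6e-08, limma), 7.50 ± 0.16 log2 units over background. Cbx1 (HP1 beta) read 13703, 12020 and 11249, and all 5 of its probe sets passed, some of them narrowly. Cbx5 (HP1 alpha) read 5522, 6339 and 7534, with 3 of 5 probe sets above background. Cbx3 (HP1 gamma) had 1 single-gene probe set, at 405, 192 and 289 (adjusted p = 0.13, limma), with pool 2 close to the background level and pool 1 highest. This probe set passed when the level was set at the 90th percentile. Other probe sets on the array are annotated to Cbx3 together with the pseudogene Cbx3-ps5, and 3 of those 4 were far above background, so the result for Cbx3 holds for its single-gene probe set alone.

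**Figure D3:**
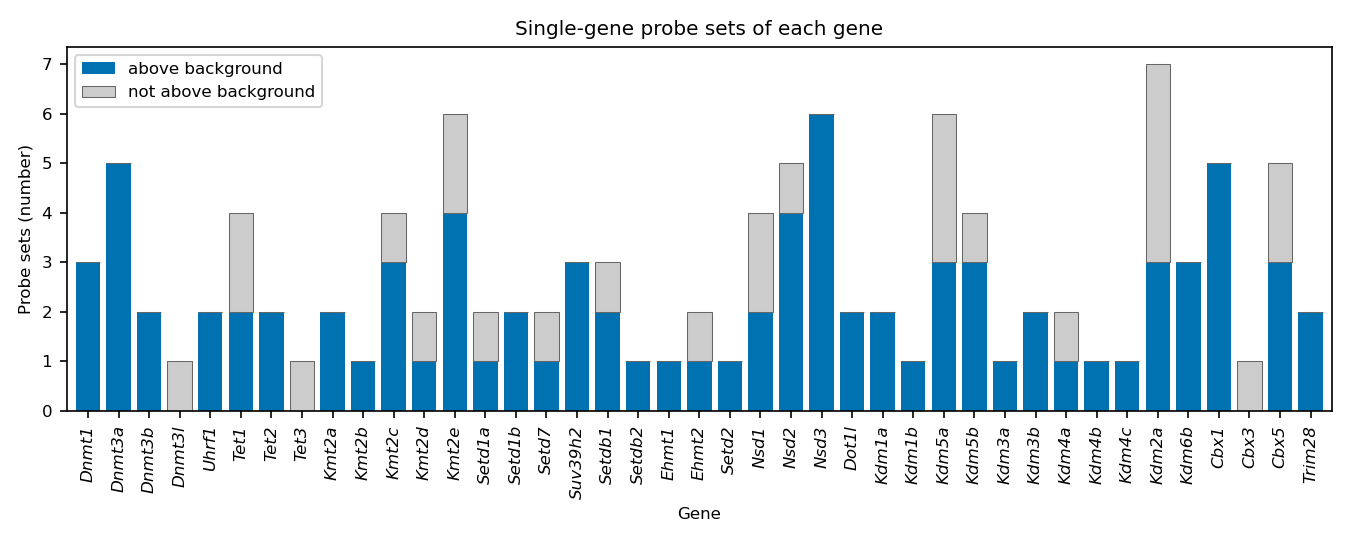
Number of single-gene probe sets of each of the 41 genes (bars from 0), split into those above background (blue) and not above it (grey). Kdm2a has the most, 7, of which 3 are above background, while Dnmt3a passes on 5 of 5 and Nsd3 on 6 of 6.

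Representative probe sets differed little between pools. Across the 38 genes above background, the median coefficient of variation was 15.2%, against 16.2% over all 9892 genes above background. The highest pool was at least 2-fold over the lowest, on signal + 16, for 3 of 38 members, against 6.87% of all genes above background. These were Kdm5a, Dot1l and Ehmt1, each highest in pool 1 and lowest in pool 3. On these same probe sets, Kdm5a alone differed by at least 2-fold between pools 2 and 3 (5007 against 2265), the same 3 genes did between pools 1 and 3, and 0 of 38 did between pools 1 and 2. When the representative was chosen anew from the pools kept, that of Kdm5a changed to its steadier probe set without pool 1 or pool 2, and that of Tet2 to its less steady one without pool 2 or pool 3. The counts were then 0 without pool 1, 3 without pool 2 (Dot1l, Ehmt1 and Tet2) and 1 without pool 3 (Tet2).

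Members with high signals were mostly highest in pool 2. This held for 6 of the 8 with a mean signal of at least 10000, among them Dnmt1, Dnmt3a, Uhrf1 and Trim28, and for 58.7% of all 1676 such genes on the array. Other probe sets of the 8 members were mixed. Pool 2 was lowest on a second Trim28 probe set (27364, 23778 and 27512) and on a Dnmt1 probe set (11356, 8623 and 10312). A second Dnmt3a probe set was nearly level with pool 3 highest (10846, 11157 and 11172). Pool 2 was highest on the remaining Dnmt1 probe set (18990, 20733 and 19978) and on a second Cbx1 probe set (11275, 12644 and 11588). Proliferation markers were highest in pool 2 in 5 of 7 cases, at median deviations of -0.09, 0.20 and -0.10 log2 units in pools 1, 2 and 3. Those of the 4 DNA methylation genes above background were -0.08, 0.17 and -0.05, although Dnmt3b was lowest in pool 2 (6007, 5323 and 6644). The median deviations of all 1676 genes with a mean signal of at least 10000 had the same signs, at -0.07, 0.12 and -0.05. After quantile normalization between arrays, pool 2 was highest for 5 of the 8 members, 33.4% of all bright genes and 1 of 7 proliferation markers. The part of proliferation or of array scaling in these differences was not tested.

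Probe sets other than the representative one differed more between pools. Of the 85 member probe sets above background, 21 differed by at least 2-fold, against 11.7% of all single-gene probe sets above background, and 18 of these 21 were among the 47 that did not represent a gene. The same contrast was present over the array, with 6.86% of representative and 19% of other probe sets above background at 2-fold or more. In 19 of the 21, pool 1 was highest, against 60.5% over the array, and in 1 it was pool 3, against 28.4%. The 21 belonged to 15 genes. Without pool 1, 7 member probe sets differed by 2-fold or more, without pool 2 there were 12 and without pool 3 there were 15. The share of all single-gene probe sets above background fell as well, to 3.92%, 7.09% and 5.02% in these settings. The median deviation of the 47 from their 3-pool means was 0.35 log2 units in pool 1, -0.13 in pool 2 and -0.03 in pool 3, and that of all such probe sets on the array was 0.07, -0.03 and -0.03.

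**Figure D4:**
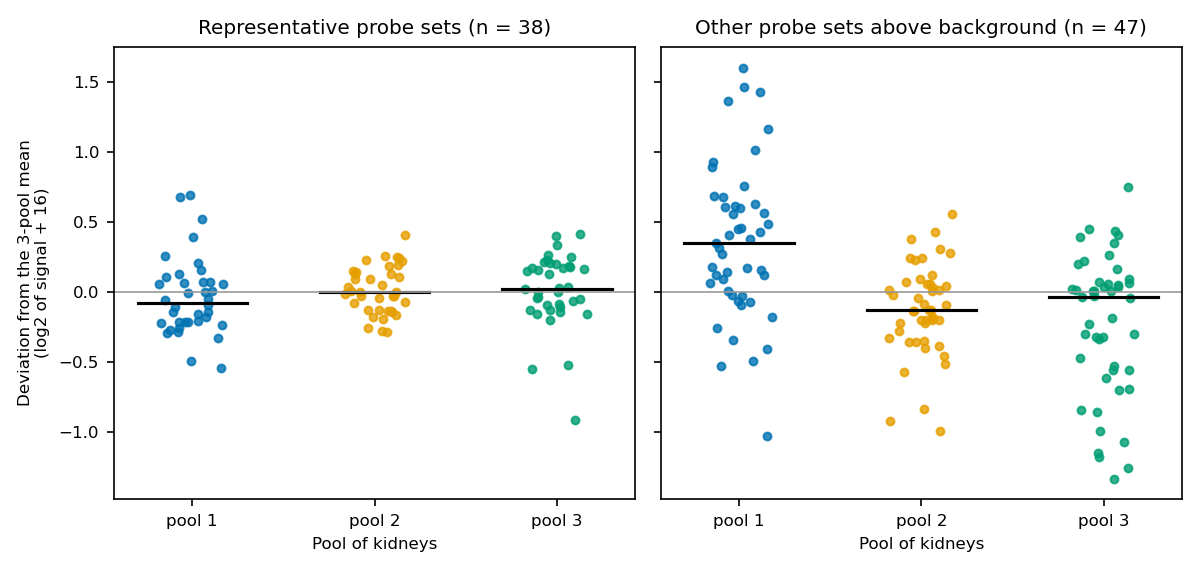
Deviation of each member probe set above background from its own 3-pool mean (y axis, log2 of signal + 16) in pools 1, 2 and 3, for 38 representative and 47 other probe sets; black bars are medians. The other probe sets reach higher in pool 1, with a median of 0.35, while the representative ones centre near 0 in each pool.

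Several genes held probe sets that moved apart between the same pools. For Dnmt3a, the representative probe set and the next (10846, 11157 and 11172) were nearly level. Of its other 3, a pair was highest in pool 1 (5432, 1397 and 738; 2690, 1385 and 1408) and 1 was highest in pool 3 (1234, 3071 and 4257). Within this gene, then, pool 1 was 7.23-fold over pool 3 on one probe set and 3.42-fold under it on another, on signal + 16. Kmt2e had a probe set at 1587, 514 and 216 beside its level representative one, Setdb1 one at 1349, 833 and 301, and Kdm5b one at 1231, 400 and 203. The Kdm2a probe sets that passed besides the representative one were both highest in pool 1, at 1926, 1666 and 857 and at 1253, 486 and 270, whereas the representative one was lowest there. Log2 ratios of 3′ over 5′ control probe sets were 1.82, 3.28 and 3.17 for beta-actin in pools 1, 2 and 3. For the transferrin receptor they were 1.80, 3.03 and 2.44, for pyruvate carboxylase 1.59, 2.00 and 2.53, and for 18S RNA 0.03, 0.77 and 1.29. All of these were lowest in pool 1, whereas the ratios of Gapdh were 4.34, 5.02 and 4.06. Summed stromal signals were also highest in pool 1, but the stromal markers above background did not move together. Aldh1a2, at 15849, 9206 and 10478 in pools 1, 2 and 3, and Meis1 were highest in pool 1. Foxd1 was lowest there, at 7370, 7389 and 7938, and Pdgfra and Pdgfrb were highest in pool 2. The part of RNA length or of stromal cells in the differences between probe sets was not tested.

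**Figure D5:**
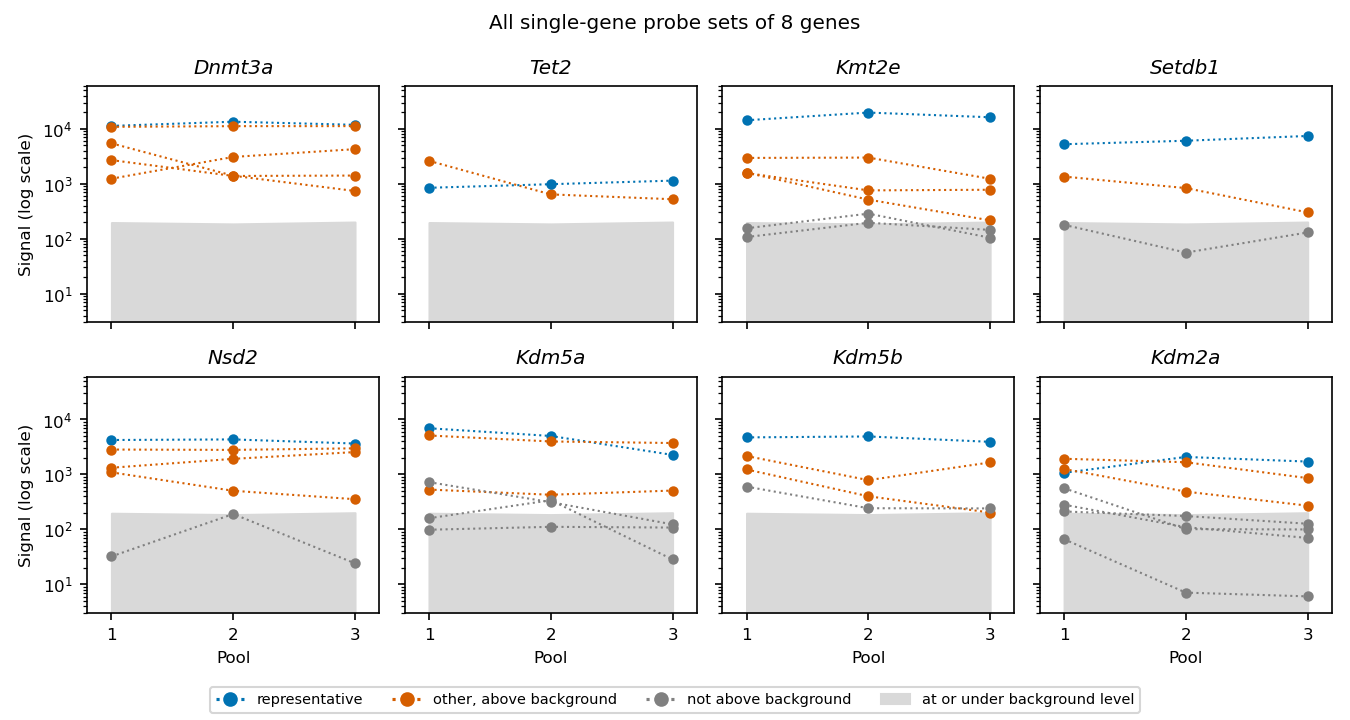
Signals of all single-gene probe sets of 8 genes (y axis, log scale) in pools 1 to 3, chosen after their values were seen; dotted lines only join the values of 1 probe set, since pools have no order. Blue marks the representative probe set, orange other probe sets above background, grey symbols those not above it, and the grey area signals at or under the background level; in Dnmt3a, a probe set at 5432, 1397 and 738 stands beside one at 1234, 3071 and 4257.

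Other genes of the same pathways were mostly detected, with 52 of 59 measured genes above background beside 54.4% of all genes. COMPASS cofactors, the shared subunits and partners of the H3K4 methyltransferases, passed in 12 of 12 cases, led by the moderated statistics of Psip1 (17901 ± 859), Dpy30 (10105.1 ± 1461) and Hcfc1 (6621 ± 572, n = 3 each) and closed by Kansl1 (2271 ± 316) and Men1 (1331 ± 212). Further lysine methyltransferases and demethylases passed in 22 of 26 cases, with Kdm2b at 26731 ± 3192, Kdm7a at 7682 ± 473 and Smyd2 at 13799 ± 2115 (n = 3 each). The 4 that did not pass were the muscle gene Smyd1 (311 ± 71.4), the hair follicle gene Hr (175 ± 48.9), the meiotic Prdm9 (115 ± 12.4) and Kdm4d (86.1 ± 28.3). Methyl-CpG readers and related genes passed in 7 of 8 cases, led by the Uhrf1 relative Uhrf2 (8846 ± 745), Mbd2 (5824 ± 824) and Mbd1 (4066 ± 387), with Mbd4, a glycosylase, lower in the order at 643 ± 156 and Zbtb38 (297 ± 93.0) not above background. Arginine methyltransferases and enzymes of the methyl donor cycle passed in 11 of 13 cases. Ahcy, which clears the product of every methylation reaction, was at 28044 ± 3853, and Prmt2 and the Prmt5 partner Wdr77 were at 10871 ± 889 and 18224 ± 1313. Mat1a, the liver form of the enzyme that makes the methyl donor, and the brain enzyme Prmt8 were not above background (22.3 ± 17.8 and 5.52 ± 1.57, n = 3 each).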

How the data were processed

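The 3 arrays, 1 per pool of sorted cells, formed 1 group. The deposited values are linear intensity signals for 45101 probe sets, which the authors made with GCOS, per the submitters' processing notes; version, settings and genome build are not given in the sources used here. As tested on the values, the mean after trimming 2% at each end was 1500 on every array. Per the labels, RNA was amplified in 2 rounds, which favours 3′ ends. After leaving out 64 controls, 45037 probe sets were tested with limma 3.58.1 in R 4.3.3 (intercept-only fit, eBayes with an intensity trend, one-sided) on log2(signal + 16) minus the background level of the array, with Benjamini-Hochberg adjustment. Adding 16 shrinks differences between weak signals. Python 3.11.15, pandas 2.3.3 and matplotlib 3.10.9 were used for tables and plots. The fit was tested on simulated data first. Genes were named from the platform annotation; 932 probe sets carried several symbols and 9160 none, and neither kind was given a gene. Promoters were matched by Entrez identifier. Members and gene lists were chosen with earlier results of these data known. All members could be named, and of each other list of pathway genes the top 3 and bottom 2 by moderated statistic and any that failed. Differences between pools were described without a test. The number of arrays limits the precision. Alternatives were other pseudocounts, background percentiles, quantile normalization, a signal filter, leaving out ambiguous probe sets, other gene rules, no trend, and leaving out each pool.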

Additional observations from a re-analysis of the deposited data

Results flagged for a closer look

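Probe sets annotated to a member together with another gene lie outside the comparisons above, and 4 of them were above background in limma. Of those shared by Cbx3 and its pseudogene Cbx3-ps5, 1 had signals of 40124, 35066 and 27882 in pools 1, 2 and 3 (mean 34357 ± 6152, n = 3, adjusted p = 1.6e-08), 1 had 35130, 51041 and 38618 (mean 41596 ± 8363, adjusted p = 1.6e-08) and 1 had 26086, 20124 and 15412 (mean 20541 ± 5349, adjusted p = 2.2e-08). The last shared probe set of this pair, at 145 ± 26.4, was not above background. Gene and pseudogene cannot be told apart on these probe sets. A probe set shared by Kdm6b and 1700064E03Rik had signals of 1655, 2859 and 3172 (mean 2562 ± 801, n = 3, adjusted p = 1.1e-06), highest in pool 3. Of the single-gene probe sets of Kdm6b, the representative one was highest in pool 3, and the other pair, at 1528, 864 and 638 and at 718, 235 and 658, was highest in pool 1.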

How the results depend on the processing

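The number of members above background was 38 and ranged from 35 to 39 over 13 alternatives, and the number of their probe sets was 85, with a range of 66 to 87. DNA methylation and demethylation genes kept counts of 4 and 2 throughout, and other pathway genes ranged from 44 to 54. No member lost its call when any single pool was left out. At the 99th percentile of background, Kdm4b and Cbx3 lay under the level by -0.25 and -0.62 log2 units, and Dot1l and Kdm1b lost their calls; Cbx3 gained one at the 90th percentile. Requiring that at least 50% of a gene's probe sets pass removed Kdm2a. Counts of differences between pools were less stable. Members that differed by 2-fold or more numbered 3, but 5 after quantile normalization (Kdm2a and, on another representative probe set, Tet2 were added). With 1 pool left out they numbered 0 to 3, whether the representative was chosen anew or, in a setting added after seeing the data, kept; the genes and pools behind these counts differ, as given above. Settings for single probe sets were added after seeing the data. The count of 21 member probe sets at 2-fold or more became 12 at the 99th percentile and 7 to 15 with 1 pool left out. Those highest in pool 1, 19 of 21, became 10 of 12 at the 99th percentile, against 61.38% over the array. They became 11 of 12 without pool 2, against 69.81%, and 14 of 15 without pool 3, against 80.02%. After quantile normalization they were 17 of 22, against 50.05%. Without ambiguous probe sets Dnmt3l had no value, nor had Tet3 with the signal filter. No paired analysis was possible because there was 1 group. Signals near background limit what can be said of Dnmt3l, Tet3, Cbx3 and Kdm4b.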

Other observations

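Genes on the Y chromosome encode relatives of the H3K4 demethylase Kdm5c and the H3K27 demethylase Kdm6a. These genes, named after their values were seen, were above background in limma: Kdm5d read 497, 704 and 398 in pools 1, 2 and 3 (adjusted p = 0.00098, 1 of 3 probe sets), and Uty read 522, 388 and 359 (adjusted p = 0.0029, 2 of 4 probe sets). Their X-linked relatives read 7130, 8789 and 7858 for Kdm5c and 2100, 1740 and 2321 for Kdm6a. The labels give the sex as unknown.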
